A study of Homo sapiens with 9 samples.

Results

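The E2F transcription factor genes, their dimerisation partner and the retinoblastoma family, or pocket protein, genes that restrain them were examined in A549, a long-established human lung adenocarcinoma cell line. The 9 genes E2F1, E2F2, E2F3, E2F7, E2F8, TFDP1, RB1, RBL1 and RBL2 were chosen by name, and all 9 were found among the 60676 gene rows of the deposited count table and passed the filter on low counts. RNA was sequenced from 9 libraries in 3 groups of 3. The first 2 groups carried a lentiviral short hairpin RNA, shLITATS1-1 or shLITATS1-2, directed against the long noncoding RNA LITATS1, and the third carried a non-targeting hairpin, shNT. In every group, shNT included, cells were exposed to lentivirus overnight, cultured for 2 days, placed under puromycin and collected after another 3 days, so that transduction and drug selection were shared by all groups. Each group was thus a selected pool and not a clone. The submitters describe the 3 libraries of a group as biological replicates, but nothing says that they came from separate transductions, and p-values measure only the spread between these libraries.

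E2F proteins bind promoters of genes needed for DNA replication and cell cycle entry. E2F1, E2F2 and E2F3 bind as dimers with a DP protein such as TFDP1 and activate transcription, whereas E2F7 and E2F8 bind without DP and repress. The pocket proteins RB1, RBL1 (p107) and RBL2 (p130) bind E2F-DP dimers and hold their targets silent until cyclin-dependent kinases phosphorylate them, and RBL2 is known for joining the MuvB core in the DREAM complex of resting cells.

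Each library held 24556848 to 24671296 fragments, and 19610514 to 19989652 fell in gene rows. LITATS1, the targeted RNA, had 72, 61 and 57 fragments with shLITATS1-1, 69, 63 and 56 with shLITATS1-2, and 274, 283 and 328 with shNT. Its level was 22.0% ± 2.68 of the shNT mean with shLITATS1-1 and 19.96% ± 2.12 with shLITATS1-2 (SD, n = 3 each), and the hairpins did not differ (log2 difference 0.14, 95% interval -0.16 to 0.45). Levels are given as CPM, a library's counts scaled to a common total with TMM factors. Keratins and other A549 epithelial genes, 9 markers in all, summed to 23136 to 23652 CPM with shLITATS1-1, 12314 to 12762 CPM with shLITATS1-2 and 17050 to 17416 CPM with shNT. ALDH1A1 made up the most of this sum with shLITATS1-1, shLITATS1-2 and shNT, at 9821, 3521 and 6359 CPM. KRT19 (162 against 81.1 CPM) and KRT7 (1502 against 1364 CPM), in contrast, were higher with shLITATS1-2 than with shNT. In the tests described below, 6 of the 9 fell and 2 rose with shLITATS1-2, and 2 fell and 5 rose with shLITATS1-1. Of all tested genes, 28.9% fell and 27.8% rose with shLITATS1-2, and 30.5% fell and 30.5% rose with shLITATS1-1. Immune markers summed to at most 0.421 CPM and endothelial markers to at most 0.870 CPM in any library, and CD3E had no fragment. The 5 fibroblast markers summed to 4.85 to 5.37 CPM with shLITATS1-1, 1.64 to 1.73 CPM with shLITATS1-2 and 2.56 to 3.29 CPM with shNT. Of these LUM averaged 3.60, 0.546 and 0.462 CPM and THY1 1.12, 0.931 and 2.29 CPM in the same groups, and DCN, COL1A2 and PDGFRB were each under 1 CPM. Mitochondrially encoded genes held 10.2%, 7.97% and 12.2% of gene fragments with shLITATS1-1, shLITATS1-2 and shNT, and unaligned fragments 5.56%, 5.43% and 3.79% of all fragments. With mitochondrial genes left out, 1 of the alternatives below, log2 fold changes moved by a median of 0.0023 for shLITATS1-1 and 0.0083 for shLITATS1-2 against shNT. Between the hairpins the median shift was -0.0060. The part of these differences in the results was otherwise not tested.

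Promoter sequences were looked up because E2F genes and RBL1 are themselves known E2F targets. RefSeq windows on GRCh38.p14, each of 250 bases before and 50 after a transcription start, were found for 8 of the 9 genes, all but E2F8. They were searched on both strands for 4 E2F motifs, TTTCGCGC, TTTGGCGC, TTTCCCGC and TTTGCCGC, and for the cell cycle homology region motifs TTTGAA and TTCGAA, which the MuvB core is known to read. No matches overlapped. Shown are the windows of E2F1 (chr20:33686336-33686635, minus strand), E2F2 (chr1:23531184-23531483, minus strand) and RBL1 (chr20:37095948-37096247, minus strand), the 3 genes that were lower with both hairpins. The upstream window of E2F3 (chr6:20401629-20401928, plus strand) is shown beside them, since E2F3 went opposite ways with the hairpins. Each reads 5′ to 3′ on the strand of its gene, with E2F motifs in capitals, and GCGGCAAA or GCGGGAAA is a motif read on the other strand.
E2F1: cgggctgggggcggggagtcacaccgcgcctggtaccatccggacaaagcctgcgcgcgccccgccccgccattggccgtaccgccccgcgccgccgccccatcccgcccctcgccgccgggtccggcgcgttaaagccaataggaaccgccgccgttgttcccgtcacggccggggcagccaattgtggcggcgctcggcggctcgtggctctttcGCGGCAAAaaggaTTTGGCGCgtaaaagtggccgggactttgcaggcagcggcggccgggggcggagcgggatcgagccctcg
E2F2: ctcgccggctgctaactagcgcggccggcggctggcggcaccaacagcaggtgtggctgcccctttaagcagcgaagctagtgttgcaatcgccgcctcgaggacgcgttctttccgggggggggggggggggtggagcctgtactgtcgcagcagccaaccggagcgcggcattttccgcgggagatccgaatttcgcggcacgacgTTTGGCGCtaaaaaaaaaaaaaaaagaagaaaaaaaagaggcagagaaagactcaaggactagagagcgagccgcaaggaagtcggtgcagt
RBL1: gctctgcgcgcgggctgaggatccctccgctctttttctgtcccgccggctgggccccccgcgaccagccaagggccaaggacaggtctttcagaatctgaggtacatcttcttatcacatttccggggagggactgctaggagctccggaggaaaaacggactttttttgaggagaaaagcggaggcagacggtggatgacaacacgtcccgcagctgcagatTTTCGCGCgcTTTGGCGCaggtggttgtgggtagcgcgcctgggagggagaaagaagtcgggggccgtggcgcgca
E2F3: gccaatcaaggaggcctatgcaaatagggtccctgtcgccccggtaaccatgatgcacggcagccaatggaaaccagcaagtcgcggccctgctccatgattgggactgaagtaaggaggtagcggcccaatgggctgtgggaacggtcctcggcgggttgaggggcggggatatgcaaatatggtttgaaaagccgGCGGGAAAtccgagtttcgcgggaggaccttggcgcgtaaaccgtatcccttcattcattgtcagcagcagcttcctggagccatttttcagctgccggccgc

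The E2F1 window held 2 E2F motifs, at bases -33 to -26 and -20 to -13 counted from the start, and the RBL1 window held 2, at -26 to -19 and -16 to -9. E2F2 had 1 at -42 to -35, the upstream E2F3 window 1 at -53 to -46 and TFDP1 1 at -120 to -113. TTTGGCGC was present in the windows of E2F1, E2F2 and RBL1 and in no other of the 10 windows found for these genes. The upstream E2F3 window held CTTGGCGC, which differs only in the first letter and is not counted by an exact search. In comparison, 0.652% of the 35116 windows in the RefSeq table held TTTGGCGC and 3.32% held any of the 4 E2F motifs. The windows of E2F7 and RBL2, the second window of E2F3 and the only RB1 window held none of the 4. Of these, all but the E2F7 window lie wholly inside their genes as annotated. The RB1 window, chr13:48476200-48476499, is far downstream of the annotated start of RB1 at 48303726. Sequence around that start was therefore not searched, and RB1 gives no comparison for the motifs. TTTGAA stood at -65 to -60 in the upstream E2F3 window and at 25 to 30 in an RBL2 window, and 16.4% of all windows held 1 of the 2 cell cycle homology region motifs. These matches describe letters in a window, and binding was not measured. TTTGGCGC is 1 of 4 motifs searched and was picked out with the fold changes known, so its match to these genes is a description only. E2F8 had no window, and the part of the motifs in the changes was not tested.

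With shLITATS1-1 against shNT, 4 of the 9 genes fell (E2F1, E2F2, E2F8 and RBL1), 2 rose (E2F3 and RBL2) and 3 did not pass the test (E2F7, TFDP1 and RB1). A gene was called where its Benjamini-Hochberg adjusted p over 15500 genes was under 0.05 in the quasi-likelihood test of edgeR, and changes are on the log2 scale throughout. Of all tested genes, 61.0% were called in this comparison, 30.5% higher and 30.5% lower, so that 6 called genes among 9 is close to the background and it is the size and pattern of the changes that the values below describe. With shLITATS1-2 against shNT, 7 fell, none rose, and E2F8 and RBL2 did not pass, where 56.7% of all genes were called, 27.8% higher and 28.9% lower. By DESeq2 the counts were equal in both comparisons with shNT. With shLITATS1-1 against shLITATS1-2, 5 were higher and 3 lower, leaving RBL1, where 60.9% of all genes were called, 30.2% higher and 30.7% lower. The median log2 fold change of the 9 genes was -0.07, -0.36 and 0.11 in these 3 comparisons, beside -0.0070, -0.0040 and -0.015 for all genes. Both comparisons with shNT share the same 3 control libraries.

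**Figure D1:**
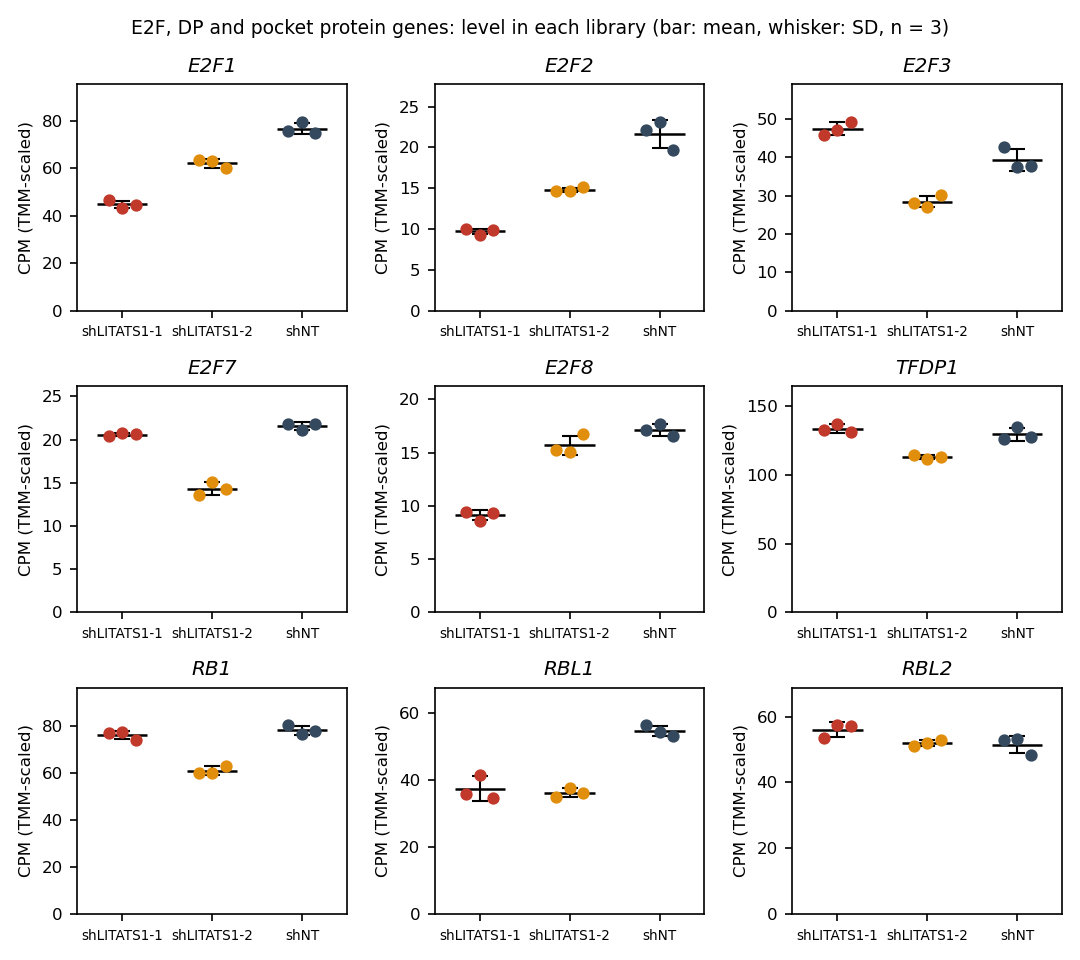
Level of each of the 9 genes in TMM-scaled CPM (y axis from 0) in the 3 libraries of shLITATS1-1, shLITATS1-2 and shNT, with the mean as a bar and the SD as a whisker. E2F1, E2F2 and RBL1 are lower with both hairpins than with shNT, E2F8 stands apart with shLITATS1-1, at 8.59 to 9.47 CPM, and E2F3, E2F7, TFDP1 and RB1 are lowest with shLITATS1-2.

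Among the activators, E2F1 (ENSG00000101412, chr20:33675683-33686404) had 46.5, 43.4 and 44.4 CPM with shLITATS1-1, 63.5, 62.8 and 59.9 CPM with shLITATS1-2, and 75.6, 79.3 and 75.0 CPM with shNT. The 3 groups did not overlap, with shLITATS1-1 lowest and shNT highest. E2F1 fell by 0.77 on the log2 scale with shLITATS1-1 (SE 0.045, edgeR adjusted p = 6.28e-25) and by 0.30 with shLITATS1-2 (SE 0.043, adjusted p = 4.98e-09). The difference between the hairpins, -0.47 (SE 0.046, edgeR adjusted p = 2.06e-14), was itself called.

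E2F2 (ENSG00000007968, chr1:23506430-23531220), which acts in the same class as E2F1, showed the same order of groups at a lower level. Its libraries held 9.99, 9.33 and 9.85 CPM with shLITATS1-1, 14.6, 14.7 and 15.1 CPM with shLITATS1-2, and 22.2, 23.1 and 19.7 CPM with shNT, again without overlap. The log2 fold change was -1.16 with shLITATS1-1 (SE 0.079, edgeR adjusted p = 2.33e-21) and -0.55 with shLITATS1-2 (SE 0.072, adjusted p = 5.94e-10). It had the largest fall of the 9 genes with shLITATS1-1, and 1.55% of all tested genes had a lower fold change there. Between the hairpins it differed by -0.61 (SE 0.084, edgeR adjusted p = 2.81e-09).

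E2F3 (ENSG00000112242, chr6:20401906-20493715), the remaining activator, moved in opposite directions. There were 45.8, 47.2 and 49.1 CPM with shLITATS1-1, 28.2, 27.1 and 30.1 CPM with shLITATS1-2, and 42.7, 37.5 and 37.7 CPM with shNT. Every shLITATS1-1 library lay above and every shLITATS1-2 library below the 3 shNT libraries. E2F3 rose by 0.27 with shLITATS1-1 (SE 0.053, edgeR adjusted p = 1.04e-05) and fell by 0.46 with shLITATS1-2 (SE 0.057, adjusted p = 7.59e-11), which left a difference of 0.73 between the hairpins (SE 0.055, adjusted p = 2.88e-19), the largest positive one of the 9 genes. The counts are per gene, so the transcripts from the upstream and the second start cannot be told apart.

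The atypical repressors split by hairpin. E2F7 (ENSG00000165891, chr12:77021247-77065580) had 20.4, 20.8 and 20.6 CPM with shLITATS1-1, 13.6, 15.1 and 14.3 CPM with shLITATS1-2, and 21.8, 21.1 and 21.8 CPM with shNT. Its shLITATS1-2 libraries were the lowest, while those of shLITATS1-1 lay just under shNT without overlap. E2F7 fell by 0.59 with shLITATS1-2 (SE 0.070, edgeR adjusted p = 2.42e-11), and with shLITATS1-1 its log2 fold change was -0.07 (95% interval -0.20 to 0.06, adjusted p = 0.384).

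E2F8 (ENSG00000129173, chr11:19224063-19241620) showed the reverse, with 9.47, 8.59 and 9.38 CPM with shLITATS1-1, 15.3, 15.1 and 16.7 CPM with shLITATS1-2, and 17.2, 17.7 and 16.6 CPM with shNT. The shLITATS1-1 libraries stood apart, and those of shLITATS1-2 overlapped shNT. E2F8 fell by 0.91 with shLITATS1-1 (SE 0.083, edgeR adjusted p = 1.33e-15), and with shLITATS1-2 the log2 fold change was -0.13 (95% interval -0.27 to 0.01, adjusted p = 0.129). Between the hairpins, E2F7 was higher by 0.52 and E2F8 lower by 0.78 with shLITATS1-1 (edgeR adjusted p = 1.55e-09 and 7.49e-13).

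TFDP1 (ENSG00000198176, chr13:113584721-113641470), which encodes the DP1 partner of the activators, had 132, 137 and 131 CPM with shLITATS1-1, 114, 112 and 113 CPM with shLITATS1-2, and 127, 135 and 128 CPM with shNT. Only the shLITATS1-2 libraries stood apart, below the rest. TFDP1 fell by 0.20 with shLITATS1-2 (SE 0.036, edgeR adjusted p = 2.32e-06), and with shLITATS1-1 its log2 fold change was 0.04 (95% interval -0.03 to 0.11, adjusted p = 0.283).

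RB1 (ENSG00000139687, chr13:48303726-48599436), the retinoblastoma tumour suppressor that binds the activators, had a like pattern, with 77.0, 77.5 and 74.2 CPM with shLITATS1-1, 59.9, 59.9 and 63.2 CPM with shLITATS1-2, and 80.5, 76.7 and 77.9 CPM with shNT. Libraries of shLITATS1-1 and shNT overlapped, and those of shLITATS1-2 were below both. RB1 fell by 0.36 with shLITATS1-2 (SE 0.042, edgeR adjusted p = 1.11e-11). With shLITATS1-1 the log2 fold change was -0.04 (95% interval -0.12 to 0.04, adjusted p = 0.414), but with an offset for gene GC content it was -0.11 and called (adjusted p = 0.00936).

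RBL1 (ENSG00000080839, chr20:36996349-37095995), whose p107 protein pairs mainly with the repressor E2F4, fell with both hairpins by similar amounts. It had 35.8, 41.6 and 34.8 CPM with shLITATS1-1, 34.9, 37.7 and 36.0 CPM with shLITATS1-2, and 56.4, 54.3 and 53.3 CPM with shNT. The 6 knockdown libraries overlapped each other and lay below every shNT library. The log2 fold change was -0.55 with shLITATS1-1 (SE 0.053, edgeR adjusted p = 1.71e-14) and -0.59 with shLITATS1-2 (SE 0.053, adjusted p = 5.04e-16). The hairpins differed by 0.05 (95% interval -0.06 to 0.16, adjusted p = 0.489).

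RBL2 (ENSG00000103479, chr16:53433977-53491649) had group means that differed least among the 9 genes, with 53.5, 57.4 and 57.3 CPM with shLITATS1-1, 51.2, 52.1 and 53.0 CPM with shLITATS1-2, and 52.9, 53.2 and 48.4 CPM with shNT. Its shLITATS1-1 libraries lay above all others, and those of shLITATS1-2 overlapped shNT. The rise with shLITATS1-1 was 0.12 (SE 0.047, edgeR adjusted p = 0.0212), and with shLITATS1-2 the log2 fold change was 0.02 (95% interval -0.08 to 0.11, adjusted p = 0.790). The call with shLITATS1-1 was lost without shLITATS1-1 replicate 2 (0.11, adjusted p = 0.0908), shLITATS1-1 replicate 3 (0.11, adjusted p = 0.0866) or shNT replicate 3 (0.08, adjusted p = 0.202), with no filter on low counts (0.11, adjusted p = 0.0530), and with offsets for GC content (0.06, adjusted p = 0.214) or gene length (0.09, adjusted p = 0.0714). RBL2 shares 610 exon bases, 8.33% of its exon length, with AKTIP on the opposite strand, which had 524 to 606 fragments, and without a stated strand setting these reads cannot be told apart.

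**Figure D2:**
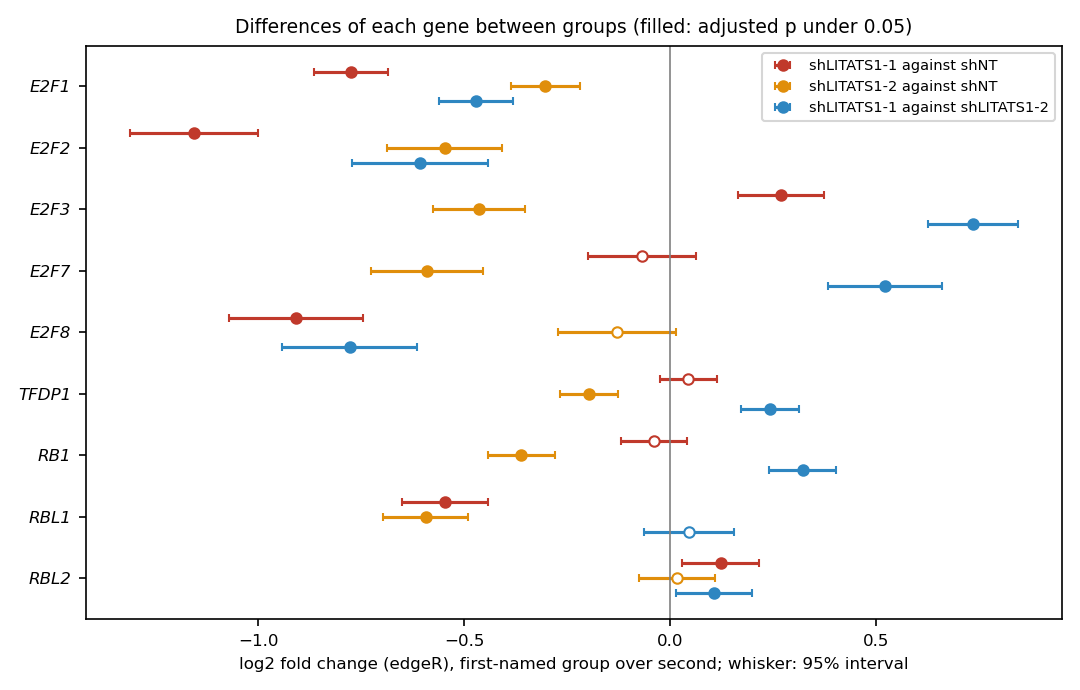
Log2 fold change from edgeR (x axis) of each of the 9 genes for shLITATS1-1 against shNT, shLITATS1-2 against shNT and shLITATS1-1 against shLITATS1-2, with 95% intervals as whiskers and filled points where the adjusted p was under 0.05. E2F1, E2F2 and RBL1 are left of 0 in both comparisons with shNT, while E2F3 stands at 0.27 with shLITATS1-1 and -0.46 with shLITATS1-2.

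In counts of libraries, 7 of the 9 genes had no overlap in CPM between shLITATS1-1 and shNT, 7 between shLITATS1-2 and shNT, and 8 between the hairpins, beside 64.2%, 59.6% and 64.2% of all tested genes. Scaling by library size alone, without TMM factors, moved the median of all genes by 0.11 for shLITATS1-2 against shNT and by -0.13 for shLITATS1-1 against shLITATS1-2. In the comparisons with shNT the directions and calls of the other 8 genes held under that scaling, and RBL2 was then called higher with shLITATS1-2 (0.13, edgeR adjusted p = 0.0149). In bulk RNA, fewer cells in a cell cycle phase and less RNA per cell cannot be told apart.

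Levels were compared between genes as CPM per kilobase of merged exons. Among the 9 genes TFDP1 was highest in every group, at 35.8, 30.2 and 34.7 CPM per kb with shLITATS1-1, shLITATS1-2 and shNT. It was followed by E2F1 at 17.9, 24.8 and 30.6 and RB1 at 11.8, 9.46 and 12.1 CPM per kb. Below these the order changed with the group. With shLITATS1-1, E2F3 came next at 9.17 CPM per kb, ahead of RBL2 (7.66), RBL1 (6.28), E2F7 (3.26), E2F8 (2.21) and E2F2 (1.78). With shLITATS1-2, RBL2 (7.12), RBL1 (6.08) and E2F3 (5.51) came before E2F8 (3.79), E2F2 (2.72) and E2F7 (2.27 CPM per kb). With shNT the order was RBL1 (9.18), E2F3 (7.60), RBL2 (7.04), E2F8 (4.14), E2F2 (3.97) and E2F7 (3.42 CPM per kb), where E2F3 overlapped RBL2 and E2F8 overlapped E2F2. No other neighbours in these orders overlapped between libraries.

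**Figure D3:**
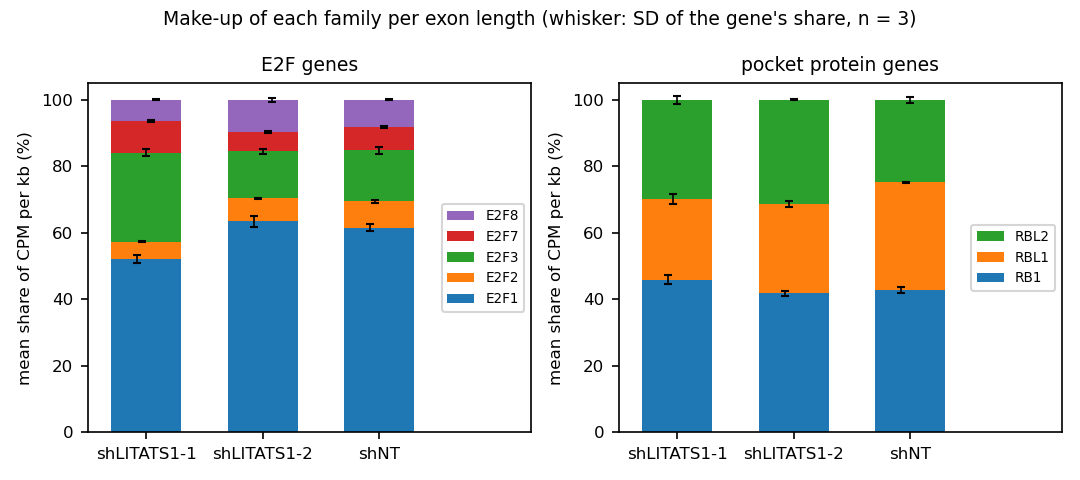
Mean share (%, n = 3, whisker: SD of that gene's share) of each gene in the summed CPM per kb of the 5 E2F genes (left) and of the 3 pocket protein genes (right) with shLITATS1-1, shLITATS1-2 and shNT. E2F3 takes 26.7% of the E2F bar with shLITATS1-1 against 15.3% with shNT, and RBL1 takes 24.3% and 26.8% of the pocket protein bar with the hairpins against 32.4% with shNT.

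As shares of the summed level per length of the 5 E2F genes, E2F1 took 52.1% ± 1.12 with shLITATS1-1, 63.5% ± 1.59 with shLITATS1-2 and 61.5% ± 1.14 with shNT (SD, n = 3 each). E2F3 took 26.7% ± 1.10, 14.1% ± 0.812 and 15.3% ± 1.11 in the same groups. E2F8 took 6.43%, 9.69% and 8.33%, and E2F7 9.51%, 5.81% and 6.88%. E2F2 took 5.19%, 6.95% and 7.97%. With shLITATS1-1 the E2F3 and E2F7 shares lay above those of shNT and the other 3 below, without overlap. With shLITATS1-2 the E2F8 share lay above and the E2F7 and E2F2 shares below those of shNT, while the E2F1 and E2F3 shares overlapped. A share can rise without the level, as for E2F7 with shLITATS1-1 (log2 fold change -0.07) and E2F8 with shLITATS1-2 (-0.13). The sum leaves out E2F4, E2F5 and E2F6, of which E2F4 had 21.7, 19.5 and 22.2 CPM per kb with shLITATS1-1, shLITATS1-2 and shNT. Among the pocket proteins RBL1 took 24.3% ± 1.50, 26.8% ± 0.877 and 32.4% ± 0.117, and RBL2 29.7% ± 1.17, 31.4% ± 0.157 and 24.8% ± 0.899. RB1 took 45.9% ± 1.27, 41.7% ± 0.808 and 42.8% ± 0.827. The higher RBL2 share with shLITATS1-2 came without a called change in its level (log2 fold change 0.02).

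Ratios within a library do not depend on scaling between libraries, but no offset for GC content or gene length was applied to them. GC content of the longest transcript was 62.5% for E2F1 and 37.3% for RB1. The log2 ratio of RBL2 to RBL1 fragments was 0.59 ± 0.13 with shLITATS1-1, 0.53 ± 0.051 with shLITATS1-2 and -0.09 ± 0.056 with shNT (SD, n = 3 each), a ratio 1.60-fold and 1.53-fold higher with the hairpins than with shNT, without overlap. E2F1 to RB1 was -0.77 ± 0.059 with shLITATS1-1, 0.02 ± 0.088 with shLITATS1-2 and -0.03 ± 0.072 with shNT, so that it stood apart with shLITATS1-1 and overlapped shNT with shLITATS1-2 (exact two-sided permutation p = 0.3, n = 3 each). E2F8 to E2F7 was -1.17 ± 0.090 with shLITATS1-1, 0.13 ± 0.12 with shLITATS1-2 and -0.33 ± 0.072 with shNT, lower with shLITATS1-1 and higher with shLITATS1-2 than with shNT. E2F3 to E2F1 was 0.08 ± 0.091 with shLITATS1-1, -1.13 ± 0.12 with shLITATS1-2 and -0.97 ± 0.13 with shNT, 2.07-fold higher with shLITATS1-1 than with shNT. With 3 libraries against 3, an exact two-sided permutation test cannot go below p = 0.1, which each ratio without overlap reached, and over the 12 tests of ratios the adjusted value was 0.133. The ratios use the same counts as the fold changes above and are no separate support for them.

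**Figure D4:**
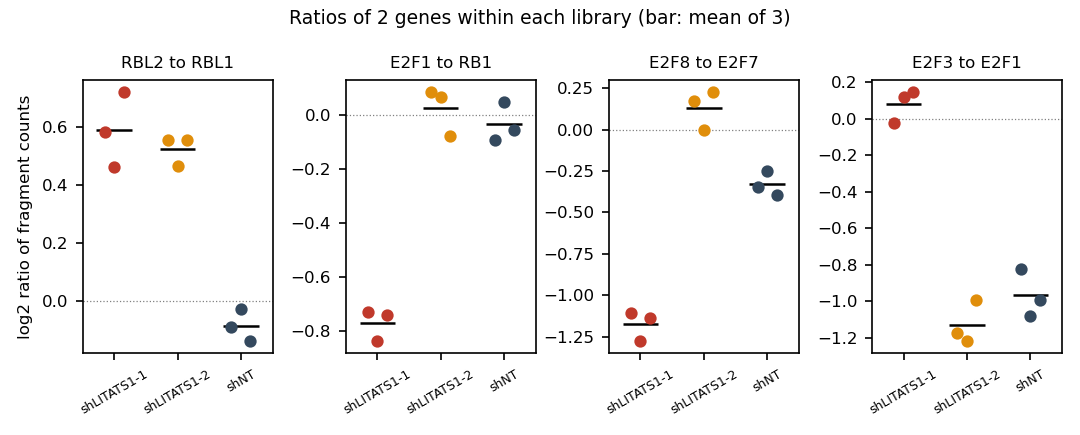
Log2 ratio of fragment counts of 2 genes within each library (y axis, scaled per panel, dotted line at equal counts), for shLITATS1-1, shLITATS1-2 and shNT, with the mean of 3 libraries as a bar. RBL2 to RBL1 is above all shNT libraries in the 6 knockdown libraries, while E2F1 to RB1, at -0.84 to -0.73, and E2F3 to E2F1 set shLITATS1-1 apart from both other groups.

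The genes whose 3 group means were nearest in shape to each of the 9 were taken from 12303 genes by the root mean square difference of centred log2 CPM. With only 3 means, close matches are common. For E2F2 they were AURKB and NCAPH, genes of mitotic kinase and condensin subunits (differences 0.030 and 0.042), and for E2F1 EXOC3-AS1 and C19orf81 (0.007 and 0.009). EXOC3-AS1 is antisense to another gene, so its count is uncertain. E2F3 was matched by DCAF17 and DMXL1, E2F7 by IFIT5 and SLC5A6, and E2F8 by CCDC121 and CBARP. RB1 was matched by H2AZ2 and EXOC6, RBL1 by NIF3L1 and TONSL, RBL2 by TOR1A and NDUFA1, and TFDP1 by RMND1 and ADCY3.

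Of the other E2F and DP genes 4 were tested, and TFDP3 had no fragment in any library. E2F5, a repressor known to pair mainly with RBL2, fell by 0.19 with shLITATS1-1 (edgeR adjusted p = 0.0140) and by 0.69 with shLITATS1-2. The fall with shLITATS1-1 lost its call without shLITATS1-1 replicate 2 (-0.16, adjusted p = 0.0794) or shNT replicate 3 (-0.16, adjusted p = 0.0824). E2F6, a repressor that acts without pocket proteins, fell by 0.21 with shLITATS1-1 and rose by 0.19 with shLITATS1-2, although its shLITATS1-2 libraries overlapped shNT. E2F4, the main repressive partner of RBL1 and RBL2, fell by 0.19 with shLITATS1-2, and its log2 fold change with shLITATS1-1 was -0.04 (adjusted p = 0.448). TFDP2, a second DP gene, had a value of -0.14 with shLITATS1-2 at an adjusted p of 0.0382, a call that was lost without shLITATS1-2 replicate 1 or 2 or any 1 shNT library (-0.11 to -0.15).

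The MuvB core, which joins RBL2 in the DREAM complex or MYBL2 and FOXM1 in activating complexes, and its partners had 8 tested genes. None rose and 6 fell with each hairpin, the same 6, with medians of -0.36 and -0.29. Of all tested genes, 30.5% were called lower with shLITATS1-1 and 28.9% with shLITATS1-2. FOXM1, which drives mitotic genes, averaged 61.6 ± 1.96 CPM with shLITATS1-1, 64.1 ± 1.25 CPM with shLITATS1-2 and 113 ± 2.64 CPM with shNT, and fell by 0.88 and 0.82. MYBL2 fell by 0.93 with shLITATS1-1 and 0.74 with shLITATS1-2, and of the core subunits LIN9 fell by 0.61 and 0.57, LIN52 by 0.36 and 0.39, and LIN54 by 0.35 and 0.19. RBBP4 was called at -0.09 with each hairpin (edgeR adjusted p = 0.0314 and 0.0346), and neither call held without shNT replicate 1 or 2, nor without shLITATS1-1 replicate 1, 2 or 3 or shLITATS1-2 replicate 2 or 3 (-0.07 to -0.09). LIN37, at under 1 CPM, and DYRK1A, the kinase that triggers DREAM assembly, did not pass, although DYRK1A was called with shLITATS1-1 with offsets for gene length (-0.22, adjusted p = 0.000303) or GC content (-0.14, adjusted p = 0.0186), and called higher with shLITATS1-2 with library size alone (0.15, adjusted p = 0.0221).

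Kinases and cyclins that act on pocket proteins divided. CDK6 rose by 1.25 with shLITATS1-1 and 0.92 with shLITATS1-2, with 72.1 ± 1.74, 57.4 ± 0.802 and 30.2 ± 2.1 CPM with shLITATS1-1, shLITATS1-2 and shNT. Its partner cyclin D1, CCND1, rose by 0.89 and 0.47, and cyclin E1, CCNE1, by 0.37 and 0.18. In contrast, CDK4 fell by 0.25 and 0.33, CDK2 by 0.48 and 0.39, and the S-phase cyclin CCNA2 by 1.05 and 0.40. CCND3 fell by 0.88 with shLITATS1-2 and had a log2 fold change of 0.01 with shLITATS1-1 (edgeR adjusted p = 0.727), which was 0.06 and called with the GC content offset (adjusted p = 0.0382) and below 0 but not called with library size alone or without shNT replicate 1. Of 7 tested genes, 3 rose and 3 fell with shLITATS1-1, and 3 rose and 4 fell with shLITATS1-2. The shares of all tested genes called were 61.0% and 56.7% with these hairpins. CCND2 was too low to test.

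Among inhibitors of these kinases, CDKN1A (p21) averaged 327 ± 5.37 CPM with shLITATS1-1, 287 ± 3.86 CPM with shLITATS1-2 and 129 ± 2.34 CPM with shNT, and rose by 1.34 and 1.15. CDKN1B (p27) rose by 0.31 and 0.61. CDKN2C (p18) fell by 0.30 and 0.72. CDKN2D (p19) fell by 0.59 with shLITATS1-1 and rose by 0.39 with shLITATS1-2, a rise that was lost without shLITATS1-2 replicate 2 (0.32, edgeR adjusted p = 0.0865) or shNT replicate 2 (0.33, adjusted p = 0.0765). CDKN1C (p57) had 6, 5 and 3 fragments with shLITATS1-1, 29, 10 and 16 with shLITATS1-2, and 4, 6 and 7 with shNT. It passed the filter on low counts only through shLITATS1-2, so its rise there, 1.58, is not independent of the filter. Its log2 fold change with shLITATS1-1 was -0.24 (edgeR adjusted p = 0.731), and both groups averaged under 1 CPM. CDKN2A, which A549 cells are known to have lost by deletion, and CDKN2B had 0 fragments in every library, which allows up to 3 counts, or 0.144 to 0.158 CPM. Of 5 tested inhibitors, 2 rose and 2 fell with shLITATS1-1, and 4 rose, CDKN1C included, and 1 fell with shLITATS1-2. Of all tested genes, 61.0% were called with shLITATS1-1 and 56.7% with shLITATS1-2.

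Genes of E2F protein turnover followed the hairpins differently. SKP2, an F-box protein that targets E2F1 and p27 for degradation, averaged 11.8 ± 1.6 CPM with shLITATS1-1, 31.7 ± 1.79 CPM with shLITATS1-2 and 23.9 ± 1.5 CPM with shNT. It fell by 1.01 with shLITATS1-1 and rose by 0.41 with shLITATS1-2, and the difference between the hairpins was -1.43 (SE 0.073, edgeR adjusted p = 1.89e-27). CCNF (cyclin F) fell by 0.85 and 0.39, FBXO5 by 0.49 and 0.28, and CDC20 by 1.40 and 0.78. FZR1 fell by 0.18 with shLITATS1-1, which was lost without shNT replicate 2 (-0.13, adjusted p = 0.0836) or with the GC content offset (-0.06, adjusted p = 0.369). With shLITATS1-2 its log2 fold change was -0.09 (edgeR adjusted p = 0.159), and it was called without shLITATS1-2 replicate 1 (-0.15, adjusted p = 0.0409) or with the GC content offset (-0.13, adjusted p = 0.0248). USP11, a deubiquitinase of E2F1, rose by 0.12 with shLITATS1-2, which was lost without shNT replicate 1 (0.08, adjusted p = 0.0888). Of these 6 genes 5 fell and none rose with shLITATS1-1, while 3 fell and 2 rose with shLITATS1-2. Among all tested genes, 61.0% and 56.7% were called in these comparisons.

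Of 11 corepressors that pocket proteins recruit, 3 rose and 7 fell with shLITATS1-1 and 3 rose and 6 fell with shLITATS1-2. For comparison, 61.0% of all tested genes were called with shLITATS1-1 and 56.7% with shLITATS1-2. The histone methyltransferase SUV39H1 fell by 0.71 and 0.23, the DNA methyltransferase DNMT1 by 0.58 and 0.50, and the histone binding protein RBBP7 by 0.11 and 0.36. KDM5A, a histone demethylase, rose by 0.20 and 0.38. The remodeller SMARCA2 rose by 0.52 with shLITATS1-1, with a log2 fold change of 0.03 with shLITATS1-2 (edgeR adjusted p = 0.619) that was 0.14 and called with library size alone (adjusted p = 0.00735). SMARCA4, its paralogue, fell by 0.49 with shLITATS1-1, and its value with shLITATS1-2, -0.21 (adjusted p = 0.0371), lost its call without shLITATS1-2 replicate 2 or 3 or any 1 shNT library (-0.17 to -0.22).

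Replication genes known as E2F targets were lower nearly throughout. Of 35 tested, 34 fell with shLITATS1-1 and 33 with shLITATS1-2, 32 of them with both, and none rose. Their medians were -0.61 and -0.54, and 30.5% and 28.9% of all tested genes were called lower in these comparisons. This list, like the other lists, was chosen with earlier results of these data known. Its count beside those shares is therefore no independent test. CDC45, of the replicative helicase, averaged 18.4 ± 0.580 CPM with shLITATS1-1, 22.8 ± 0.886 CPM with shLITATS1-2 and 39.2 ± 2.11 CPM with shNT, and fell by 1.09 and 0.78. The helicase subunits MCM2 and MCM7 fell by 1.01 and 0.90 with shLITATS1-1 and by 0.82 and 0.73 with shLITATS1-2. TK1 (thymidine kinase) fell by 1.01 and 0.75, MCM10 by 0.86 and 0.81, and POLE2, a polymerase epsilon subunit, by 0.88 and 0.56. The exceptions were GINS3 with shLITATS1-1 (-0.12, edgeR adjusted p = 0.0841), and POLA2 (-0.16, adjusted p = 0.250) and CDC25A (0.05, adjusted p = 0.545) with shLITATS1-2. GINS3 was called lower with shLITATS1-1 without shLITATS1-1 replicate 1 (-0.17, adjusted p = 0.0354) or shNT replicate 1 (-0.15, adjusted p = 0.0444), and with library size alone or the GC content offset (-0.14 and -0.18). With library size alone CDC25A rose with shLITATS1-2 (0.16, edgeR adjusted p = 0.0221). Between the hairpins 19 of the 35 were lower and 6 higher with shLITATS1-1, or 25 and 2 with library size alone. With TMM, 30.7% of all tested genes were called lower and 30.2% higher there.

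All 6 proliferation markers, MKI67, TOP2A, CCNB1, PLK1, AURKA and BUB1, fell with each hairpin and were lower with shLITATS1-1 than with shLITATS1-2. Their medians were -1.10, -0.62 and -0.44 in these comparisons. Lower calls made up 30.5%, 28.9% and 30.7% of all tested genes there. PLK1, a mitotic kinase, averaged 45.7 ± 3.77 CPM with shLITATS1-1, 80.6 ± 5.36 CPM with shLITATS1-2 and 118 ± 3.08 CPM with shNT. The hairpin difference of AURKA (-0.11, edgeR adjusted p = 0.0182) was lost without shLITATS1-1 replicate 1 or 2 or shLITATS1-2 replicate 2 (-0.07 to -0.11), and with the gene length offset (-0.07, adjusted p = 0.128). The part of a lower share of cycling cells in the levels of the 9 genes was not tested.

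Of the E2F1 targets in apoptosis, 6 were tested, and 4 rose and 2 fell with each hairpin. Calls covered 61.0% of all tested genes with shLITATS1-1 and 56.7% with shLITATS1-2. BBC3 (PUMA) rose by 1.02 and 1.26 and PMAIP1 (NOXA) by 0.61 and 0.66. BBC3 and PMAIP1 are also known as p53 targets. BCL2L11 (BIM) rose by 0.52 with shLITATS1-1 and fell by 0.23 with shLITATS1-2, a fall that was lost without shLITATS1-2 replicate 2 (-0.18, edgeR adjusted p = 0.0677) or shNT replicate 1 (-0.16, adjusted p = 0.0853). APAF1, the apoptosome scaffold, fell by 0.19 with shLITATS1-1 and rose by 0.51 with shLITATS1-2, with a difference of -0.70 between the hairpins (SE 0.059, adjusted p = 3.34e-17). TP73, below the filter, had 13, 9 and 18 fragments with shLITATS1-1, 4, 2 and 4 with shLITATS1-2, and 5, 5 and 6 with shNT.

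**Figure D5:**
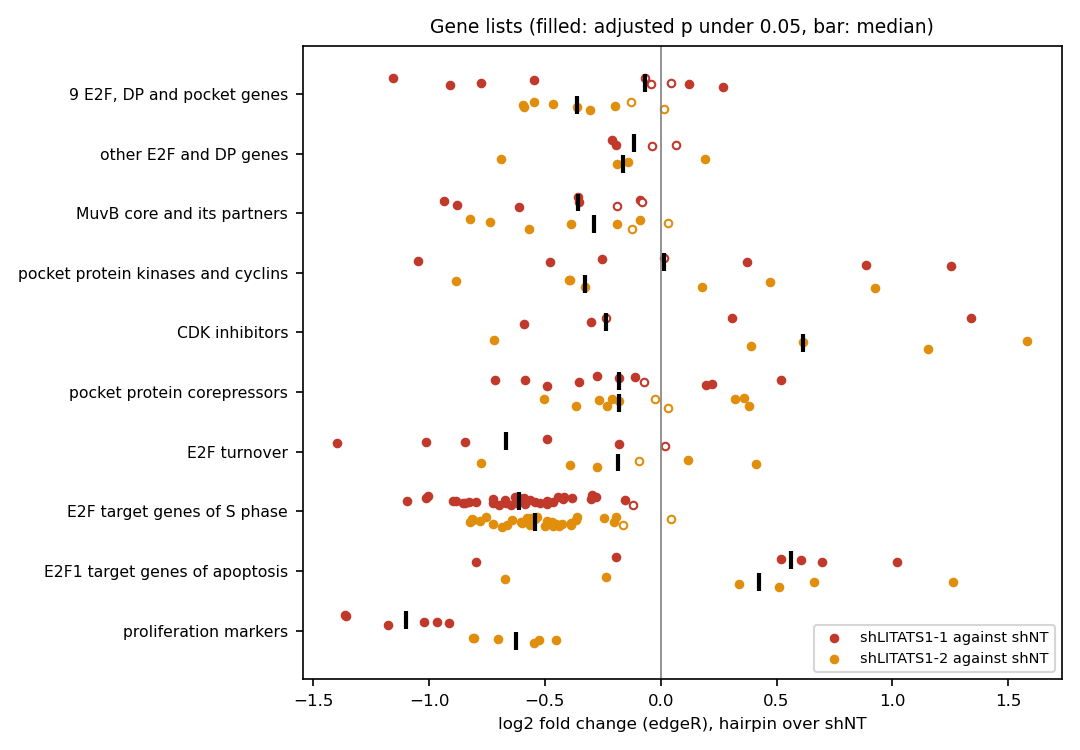
Log2 fold change from edgeR (x axis) of each tested gene of the 9 and of the related lists (rows) for shLITATS1-1 against shNT and shLITATS1-2 against shNT, with filled points where the adjusted p was under 0.05 and a bar at the median. The E2F targets of S phase lie left of 0 apart from CDC25A with shLITATS1-2 (0.05), and the CDK inhibitors and apoptosis genes lie on both sides.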

How the data were processed

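The authors deposited 1 table of unnormalized fragment counts per gene for the whole series, and no column of it was left without a sample. Per the submitters' processing notes, the build was GRCh38 and the tools named are STAR 2.7.5a, HTSeq 0.12.4, cutadapt 2.10 and FastQC. The strand setting was not given in the sources used here, nor was the annotation release, which makes counts of overlapping and antisense genes uncertain. Symbols were matched to gene identifiers, and LITATS1, listed as ZC3H12A-DT, through its RefSeq synonym. Fragments in no gene row, 20.2% with shLITATS1-1, 20.1% with shLITATS1-2 and 19.0% with shNT, entered neither library sizes nor tests.

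Of 60676 genes, 15500 passed filterByExpr (minimum count 10), and libraries were scaled by TMM. All 9 libraries entered 1 fit in edgeR 4.0.16 (glmQLFit, robust, 6 residual degrees of freedom; R 4.3.3, limma 3.58.1), and the 3 pairs of groups were compared by two-sided quasi-likelihood tests at a threshold of 0.05 after Benjamini-Hochberg adjustment. A standard error is the absolute log2 fold change over the square root of F, and a 95% interval spans 1.96 standard errors either side. Levels are TMM-scaled CPM. Gene positions and exon lengths are from GENCODE 29 on GRCh38. Replicates of a group differed by more than sampling noise, with chi-square per degree of freedom of 1.47 to 2.72, so no library was taken as a copy.

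Ratios within libraries were compared by exact permutation tests in Python 3.11.15 with numpy 2.4.6, pandas 2.3.3 and scipy 1.17.1. The 9 genes and the lists were chosen with earlier results of these data known. Named genes are the 9, LITATS1, all genes of lists of 8 or fewer, up to 6 called genes with the largest change of longer lists, and the 2 nearest in pattern to each of the 9 at a mean log2 CPM of at least 1. Some genes of the apoptosis list are not reported here. GINS3, POLA2 and CDC25A were named after their values were seen. The alternatives were DESeq2 1.42.0, its size factors in edgeR, library size alone, TMM without mitochondrial genes, no filter, a minimum count of 50, the replicate number as a block, the 6 libraries compared, a threshold of 0.01, offsets for GC content and gene length, and the omission of each library. The fit was tested on simulated data.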

Additional observations from a re-analysis of the deposited data

How the results depend on the processing

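Over the 20 alternatives, 5 to 6 of the 9 genes were called with shLITATS1-1 against shNT, 7 to 8 with shLITATS1-2 against shNT and 7 to 8 with shLITATS1-1 against shLITATS1-2. E2F1, E2F2, E2F3, E2F7, E2F8 and TFDP1 kept their direction and their side of the threshold in all 3 comparisons under all of them, and RB1 did except with shLITATS1-1 under the GC content offset. RBL2 with shLITATS1-2 against shNT was -0.029 without shNT replicate 3, in a range of up to 0.042 as each library was left out. RBL1 with shLITATS1-1 against shLITATS1-2 was -0.085 with library size alone, -0.075 with the GC content offset and -0.036 to 0.098 as each library was left out, lowest without shLITATS1-1 replicate 2. RBL2 between the hairpins was -0.025 with library size alone, and the RBL2 to RBL1 log2 difference between the hairpins ranged from -0.0027 (without shLITATS1-1 replicate 3) to 0.13. None of these values was called, and the cause was not tested. The call of RBL2 between the hairpins (0.11, edgeR adjusted p = 0.0445) was lost with DESeq2 (0.11, adjusted p = 0.0825), TMM without mitochondrial genes, no filter, a minimum count of 50, a threshold of 0.01, offsets for GC content (0.03) or gene length (0.07), and without shLITATS1-1 replicate 2 or 3 or shLITATS1-2 replicate 1 or 2 (0.09 to 0.10). Among the genes named, the calls with shLITATS1-2 of E2F4 (-0.07), LIN54 (-0.07), TFDP2 (-0.03), RBBP4 (0.02), SUV39H1 (-0.12), SMARCA4 (-0.10) and BCL2L11 (-0.12) were lost with library size alone. That of LIN54 was also lost with the GC content offset (-0.12). With DESeq2 those of RBBP4 with each hairpin, TFDP2 and SMARCA4 with shLITATS1-2, AURKA between the hairpins, E2F5 with shLITATS1-1 (adjusted p = 0.0620) and CDKN2D with shLITATS1-2 (adjusted p = 0.0710) were lost. With the replicate number as a block 6, 7 and 7 of the 9 genes were called, RBL2 between the hairpins being lost (adjusted p = 0.0596). Same-numbered libraries did not deviate together (correlations -0.061 to 0.036), and differently numbered ones gave -0.036 to 0.053. With deviations from means of 3 libraries, these values cannot show whether same-numbered libraries shared a culture or transduction. With library size alone 67.1% of the calls were higher with shLITATS1-2 against shNT, beside 49.0% with TMM, and 32.3% with shLITATS1-1 against shLITATS1-2, beside 49.6%. Genes below the filter, such as TP73, were not tested.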
